A study of Mus musculus with 6 samples.

Results

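The genes described here encode the core of cytokine signalling through Janus kinases (JAKs), signal transducers and activators of transcription (STATs) and suppressors of cytokine signalling (SOCS). They are the 10 rows of the deposited gene table named Jak1, Jak2, Tyk2, Stat3, Stat5a, Stat5b, Stat6, Socs2, Socs3 and Il6st, out of 54532 genes in all. The cells were L929, an established mouse fibroblast line often used in work on tumour necrosis factor, with genotype WT in both groups. The 3 control libraries came from cells labelled Control, although the protocol text of all 6 samples describes the same exposure. The 3 treated libraries came from cells that received 10 ng/ml TNF-α and 1 µg/ml actinomycin D, and the exposure lasted 12 hours. Actinomycin D binds DNA and blocks RNA synthesis, and TNF-α is a cytokine of inflammation. No group received either agent alone, so their parts cannot be told apart. All cells are of 1 line.

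Cytokines of the interleukin 6 and interferon families bind receptors that have no enzyme activity of their own. The bound receptors bring JAKs together, and these phosphorylate the receptor and the STAT proteins, which pair, enter the nucleus and switch on genes. SOCS genes are among those genes, and their products bind receptors and kinases and end the signal. Fibroblasts are known to respond through this pathway to leukaemia inhibitory factor, oncostatin M and interferons. The libraries measure mRNA only, so phosphorylation and protein were not measured.

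Library totals ran from 16056207 to 18036322 counts. Of 11 fibroblast marker genes, 10 had enough counts to be tested, of which 8 were higher and 2 lower after treatment. Of all tested genes 34.6% were higher and 40.2% lower. The summed level of the 11 marker genes ran from 6751 to 8728 CPM in controls and from 21160.0 to 24627 CPM in treated libraries. CPM here are counts scaled to a common library total after that total was adjusted by TMM, a method described below. TMM lifted treated values relative to controls, and marker values on other scales are not given here. Col1a2 and Vim led in controls at 1805 and 2476 CPM, the falls were Pdgfra (−1.61 on the log2 scale) and Pdgfrb (−0.93), and Thy1 summed to 6 counts in controls and 0 in treated libraries. Summed macrophage markers ran from 7.14 to 9.51 CPM in controls and from 54.8 to 70.2 CPM after treatment, carried by Cd68, Lyz2 and Cd14, while the defining markers Ptprc, Adgre1 and Itgam summed to 1, 1 and 0 counts in controls and to 0 each after treatment. Summed lymphocyte markers (0.124 to 0.245 CPM in controls and 0.882 to 1.59 after treatment), epithelial markers (0.0408 to 0.165 and 0.618 to 0.882) and endothelial markers (0.286 to 0.538 and 0 to 0.457) were low. The part of these markers in the changes below was not tested. The labels do not say whether each library had a culture of its own, so the p-values cover the spread among these libraries only, and that spread may be technical.

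After treatment 7 of the 10 genes were lower, 1 was higher and 2 did not pass the test. All 10 had enough counts to be tested. Jak2 fell by 10.5-fold and the shared receptor gene Il6st by 4.38-fold in the fitted change, and Stat3, Stat5a, Stat5b, Stat6 and Socs2 fell as well. Socs3, a feedback inhibitor, was the 1 gene that rose, a direction that turned by library size alone or when ribosomal protein genes were held equal; Jak1 and Tyk2 did not pass. Of all 13290 tested genes 74.8% were called, 40.2% lower and 34.6% higher, at an adjusted p of 0.05 (Benjamini-Hochberg) in edgeR's quasi-likelihood model. The median log2 fold change was −1.15 over the 10 genes and −0.18 over all tested genes. Values below are CPM scaled by TMM, a method that aligns the bulk of genes between libraries; it lifted treated values relative to controls, with factors of 1.44 ± 0.093 in controls and 0.699 ± 0.086 in treated libraries (SD, n = 3 per group). Ribosomal protein genes held 7.89% ± 0.63 of counts in controls and 20.4% ± 2.37 in treated libraries, and the part of this shift in the members' changes was not tested. A further scale, called the ribosomal scale, held the summed counts of 79 ribosomal protein genes equal between libraries. On it all 10 members were called lower, as were 10954 of the 13290 tested genes. With library size alone, which reads each gene as a share of all counts, 9 members were called lower and none of the 10 higher, against 59.6% and 17.1% of all tested genes. That scale moved the median of all tested genes by −1.04 relative to TMM, and Socs3 changed by −0.21 (adjusted p = 0.29, edgeR). Fewer cells and less RNA per cell cannot be told apart in these bulk libraries, and amounts per cell were not measured.

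**Figure D1:**
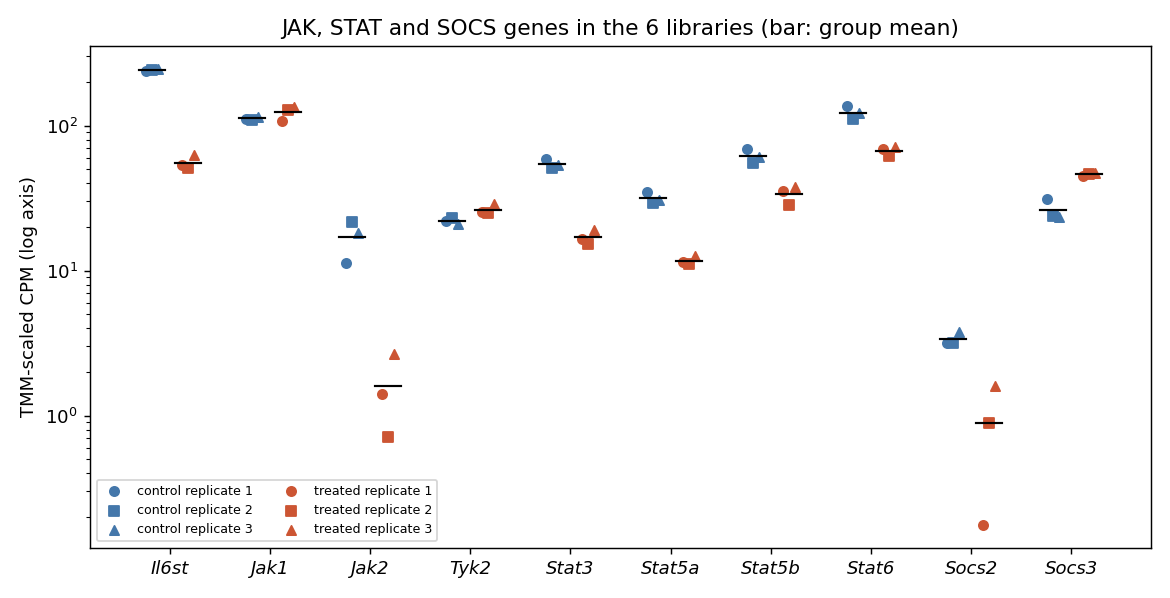
TMM-scaled CPM on a log axis for the 10 genes in each of the 6 libraries, with symbols for replicates and black bars for group means. Control and treated symbols are apart for every gene but Jak1, treated values lie lower for 7 genes and higher for Socs3 and Tyk2, and treated replicate 3 (triangles) is the highest treated library for all 10.

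Il6st encodes gp130, the receptor subunit shared by the interleukin 6 family, and carried the highest counts of the 10 genes in controls. It lies on chromosome 13 from 112464070 to 112510086 on the plus strand (GRCm38), and the deposited gene length is 11099 bases. Control replicates 1, 2 and 3 had 239, 242 and 247 CPM, and treated replicates 1, 2 and 3 had 53.1, 50.9 and 62.2 CPM. The groups did not overlap, and the controls lay within a narrow band. TMM-scaled CPM of 42% of all tested genes were lower in every treated library than in every control. The log2 fold change was −2.13 ± 0.15 (SE; adjusted p = 7.47e-07, edgeR). It was −2.26 without treated replicate 3 and lay between that value and −2.12 when any 1 library was left out.

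Of the 3 kinases, 1 was called lower and 2 did not pass. Jak1 serves many cytokine receptors, and its gene lies on chromosome 4 from 101152367 to 101265282. Its controls had 111, 109.6 and 115 CPM and its treated libraries 107, 128 and 134 CPM. Treated replicate 1 lay below all 3 controls and the other two treated libraries above them. The log2 difference was 0.14 with a 95% interval of −0.18 to 0.46 (adjusted p = 0.405, edgeR). By library size alone Jak1 was called lower (−0.89, adjusted p = 0.00172, edgeR).

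Tyk2, a kinase for interferon and interleukin 12 type receptors, lies on chromosome 9 from 21104068 to 21131243. It had 22.1, 22.99 and 21.0 CPM in controls and 25.2, 24.8 and 28.7 CPM after treatment. The treated values lay above all controls, yet the difference of 0.25 did not pass (95% interval −0.12 to 0.63, adjusted p = 0.198, edgeR). DESeq2 called it higher at 0.37 (adjusted p = 0.0468), and library size alone called it lower at −0.78 (adjusted p = 0.00739).

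Jak2, the kinase of the growth hormone, erythropoietin and interferon γ receptors, lies on chromosome 19 from 29251828 to 29313080. It had 11.3, 21.7 and 18.04 CPM in controls and 1.41, 0.706 and 2.67 CPM after treatment. The groups did not overlap, though controls differed among themselves by more than for any other member in relative terms. The treated values rest on 16, 8 and 35 counts. The log2 change was −3.39 ± 0.43 (SE; adjusted p = 3.75e-05, edgeR), lower than that of 96% of all tested genes, and it reached −4.05 without treated replicate 3.

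The 4 STAT genes were all lower in every treated library than in any control on the TMM scale, as were 42% of all tested genes. All 4 were called lower under each alternative run. Of all tested genes 40.2% were called lower on the TMM scale and 59.6% by library size alone. With ribosomal protein genes held equal, 10954 of all 13290 tested genes were called lower. Stat3, the main transducer of gp130 signals, had 58.6, 51.2 and 53.8 CPM in controls and 16.5, 15.2 and 19.1 CPM after treatment. Its log2 change was −1.69 ± 0.17 (SE; adjusted p = 6.67e-06, edgeR). Stat5a and Stat5b are close paralogs that serve growth hormone and prolactin signals. Stat5a had 34.6, 29.4 and 30.7 CPM in controls and 11.46, 11.04 and 12.6 CPM after treatment, a log2 change of −1.43 ± 0.18 (adjusted p = 3.08e-05, edgeR).

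Stat5b had 69.1, 55.2 and 60.4 CPM in controls and 35.3, 28.4 and 37.7 CPM after treatment. The log2 change was −0.87 ± 0.17 (SE; adjusted p = 0.000898, edgeR). Stat6, the transducer of interleukin 4 and 13, had 137, 111 and 121 CPM in controls and 68.8, 62.1 and 71.1 CPM after treatment, a change of −0.87 ± 0.15 (adjusted p = 0.00028, edgeR). In point estimate Stat3 and Stat5a changed more than Stat5b and Stat6.

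Stat5b, Stat5a and Stat3 are neighbours on chromosome 11. Stat5b spans 100780731 to 100850724 on the minus strand, and Stat5a starts 8626 bases further on and spans 100859351 to 100885169 on the plus strand. Stat3 spans 100885098 to 100939540 on the minus strand, so the ends of Stat5a and Stat3 overlap by 72 bases. Stat6 lies on chromosome 10 from 127642986 to 127660957 and shares 40 bases with the oppositely placed Nab2. The sources used here do not give whether counting used strand, so reads in those overlaps, and reads shared between the similar Stat5a and Stat5b, may be assigned to either gene.

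On the TMM scale the SOCS genes went opposite ways. Socs3, whose product blocks gp130 and JAKs, lies on chromosome 11 from 117966079 to 117970047 and had 31.4, 23.8 and 23.4 CPM in controls. It had 44.6, 46.7 and 46.97 CPM in treated libraries. The treated values were close to each other and above all controls, where 35.9% of all tested genes had no overlap in this direction. The log2 change was 0.82 ± 0.18 (SE, adjusted p = 0.00146, edgeR), a rise of 1.76-fold. With library size alone the sign turned without passing (−0.21, adjusted p = 0.29, edgeR). With ribosomal protein genes held equal Socs3 was called lower (−1.56, adjusted p = 0.000691, edgeR). In raw counts Socs3 went from 759, 583 and 592 to 506, 529 and 616.

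Socs2, known as a brake on growth hormone signalling, lies on chromosome 10 from 95385362 to 95417180 and was the lowest of the 10 genes. It had 3.18, 3.14 and 3.79 CPM in controls and 0.176, 0.883 and 1.601 CPM after treatment. The groups did not overlap, but the treated values rest on 2, 10 and 21 counts. The log2 change of −1.89 ± 0.53 (SE; adjusted p = 0.00729, edgeR) became −2.69 without treated replicate 3 and −1.49 without treated replicate 1.

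The same treated library was highest for all members. Treated replicate 3 had the highest TMM-scaled CPM of the 3 treated libraries for 10 of 10 members, against 40.7% of all tested genes and 58.7% of those called lower. That library had the TMM factor nearest to the controls, at 0.797 against 0.640 and 0.659, and the most genes with a count of the treated libraries, at 18849. The part of depth or scaling in that order was not tested.

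**Figure D2:**
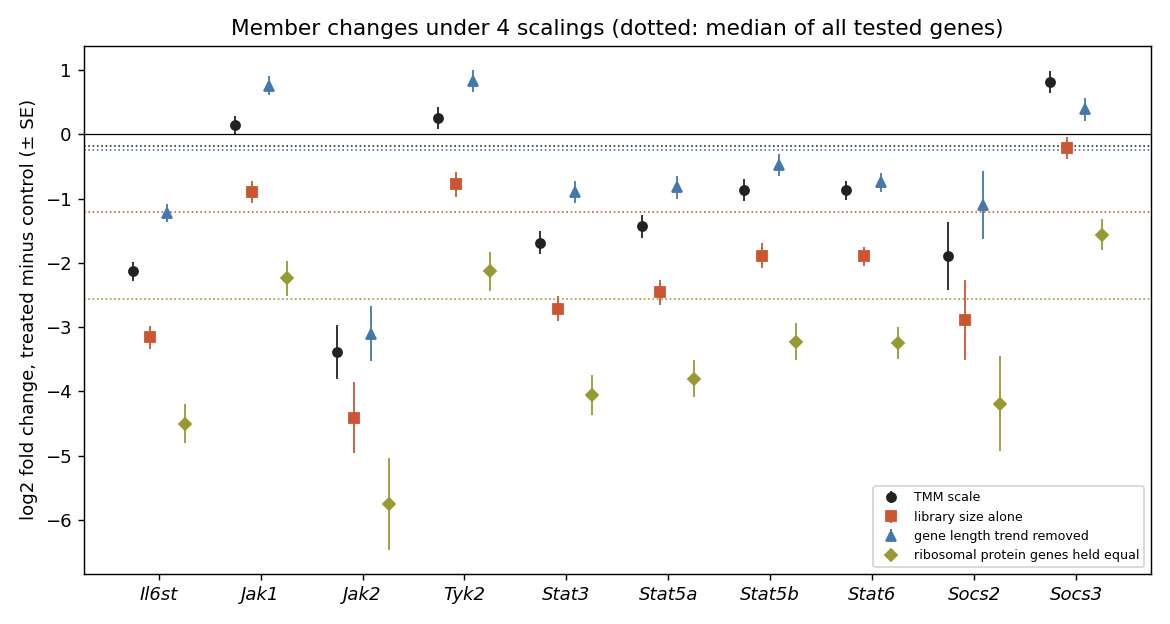
Log2 fold change of treated against control (± SE) for the 10 genes under TMM, library size alone, the TMM scale with the gene length trend removed, and ribosomal protein genes held equal; dotted lines give the median of all tested genes under each. The 7 genes that fell lie below 0 under all 4, whereas Jak1, Tyk2 and Socs3 lie above 0 with TMM and with the length trend removed and below 0 under the other 2.

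Per kilobase of deposited gene length, the order of the members' levels also changed. The order within a group depends on those lengths, which can differ from the coding transcript. Stat3 has 9527 deposited bases against 4516 in its coding transcript, and Stat5b has 5539 against 5213. In controls Stat6 was highest at 27.95 ± 2.88 CPM per kb, followed by Il6st at 21.9 ± 0.36 and Jak1 at 15.5 ± 0.42 (SD, n = 3). Stat5b (11.1 ± 1.26) and Socs3 (9.06 ± 1.56) had overlapping ranges, as did Stat5a (4.42 ± 0.38), Jak2 (3.38 ± 1.05) and Tyk2 (3.21 ± 0.14), each with the next. Stat3 stood between those sets at 5.72 ± 0.40 and Socs2 was last at 0.354 ± 0.038. After treatment Jak1 (17.04 ± 1.95), Socs3 (15.9 ± 0.44) and Stat6 (15.3 ± 1.06) led, with overlapping ranges between neighbours. Stat5b (6.10 ± 0.87) and Il6st (4.99 ± 0.54) overlapped too. Il6st moved from rank 2 to rank 5 and Socs3 from rank 5 to rank 2. The treated order ended with Tyk2 (3.83 ± 0.31), Stat3 (1.78 ± 0.21), Stat5a (1.64 ± 0.11), Jak2 (0.317 ± 0.198) and Socs2 (0.093 ± 0.075), where the ranges of Stat3 and Stat5a overlapped, as did those of Jak2 and Socs2.

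Shares within a family do not depend on scaling between libraries, but their size depends on the deposited gene lengths. Of the summed per-kilobase level of Jak1, Tyk2 and Jak2, Jak2 held 10.8%, 18.9% and 15.9% in controls and 1.49%, 0.655% and 2.28% after treatment. Jak1 held 70.3% ± 3.69 in controls and 80.4% ± 1.85 in treated libraries (SD, n = 3). Among the 4 STAT genes, Stat6 held 56.8% ± 0.23 and 61.7% ± 1.3, and Stat3 held 11.7% ± 0.35 and 7.16% ± 0.34. Jak1 and Stat6 were thus the most abundant kinase and STAT mRNA among these genes in both groups.

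Ratios between members within a library were compared for 7 pairs by exact permutation, two-sided, where 3 libraries against 3 allow no p under 0.1. For 6 pairs the groups did not overlap and p was 0.1 (0.117 after adjustment over the 7 pairs), so none passed. How often pairs of other genes do not overlap was not tested. Of all single tested genes, 42% did not overlap in the lower direction and 35.9% in the higher direction on the TMM scale. The ratios use the same counts as the changes above and restate their differences. Socs3 counts were 0.131, 0.098 and 0.095 of Il6st counts in controls and 0.841, 0.918 and 0.755 in treated libraries, a log2 difference of 2.96. Every treated ratio lay above every control ratio. Socs3 against Stat3 differed by 2.52 and Socs3 against Socs2 by 3.11, the latter 2.31 without treated replicate 1 and 3.72 without treated replicate 3.

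Jak1 to Jak2 count ratios were 9.84, 5.05 and 6.40 in controls and 76.1, 181 and 50.3 in treated libraries, a log2 difference of 3.65. Stat5a to Stat5b went from 0.501, 0.533 and 0.508 to 0.325, 0.388 and 0.334, a difference of −0.56, with every treated ratio below every control ratio. Stat6 against Stat3 differed by 0.82. Tyk2 against Jak1 overlapped between groups, with 0.199, 0.2098 and 0.182 in controls and 0.235, 0.194 and 0.214 after treatment (exact permutation p = 0.4).

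**Figure D3:**
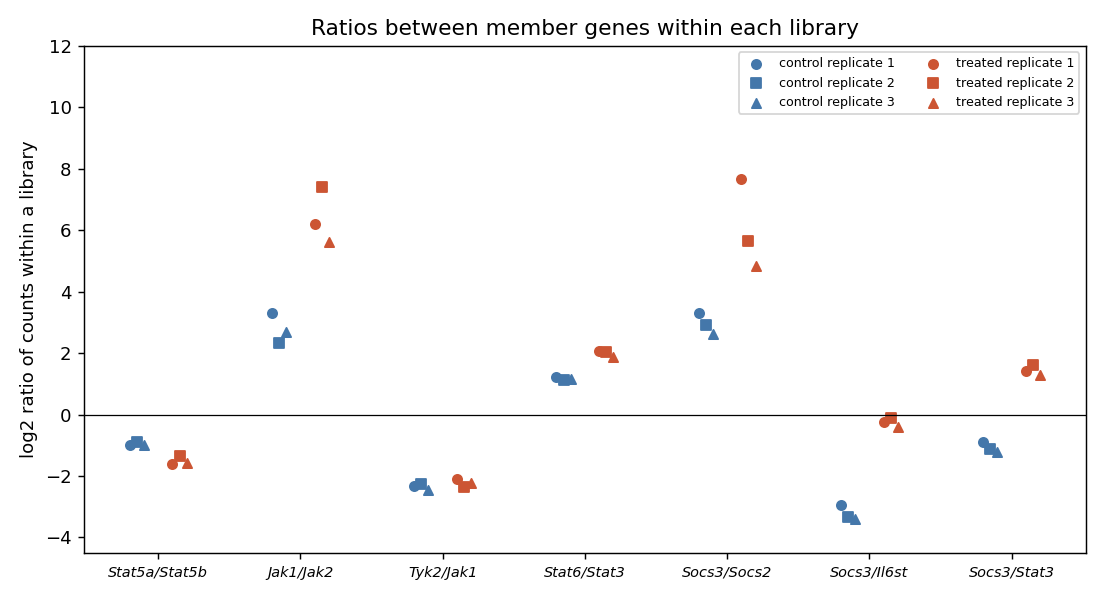
Log2 ratio of the counts of 2 member genes within each of the 6 libraries, for the 7 pairs compared; symbols mark replicates. Control and treated points are apart for 6 pairs and intermixed for Tyk2/Jak1, and Socs3/Il6st moves from a mean of −3.22 to −0.26.

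Gene length moved with the change across the transcriptome, and most members are long by the deposited lengths, which the trend uses. For Socs2 that length is 9531 bases, against 2222 bases for its coding transcript in GENCODE's annotation. Its place on the trend therefore depends on the length used, and a trend on transcript lengths was not tested. The lowess trend of all tested genes stood at 0.13 at the length of Socs3 (2891 bases) and at −1.20 at that of Il6st (11099 bases). Relative to the trend at their own lengths, the changes of Jak2 and Il6st differed by −2.80 and −0.93, and those of Jak1 and Tyk2 by 1.05 and 1.13. With the trend removed in the fit, Jak1 and Tyk2 were called higher (0.76 and 0.83, adjusted p = 0.000768 and 0.00127, edgeR). The Socs3 rise and the Socs2 fall no longer passed (0.39 and −1.10, adjusted p = 0.0692 and 0.0855). The other 6 falls kept their calls, with Il6st at −1.23 and Jak2 at −3.10. The STAT genes stood closer to 0 in that fit, with Stat3 at −0.89, Stat5a at −0.82, Stat6 at −0.74 and Stat5b at −0.48 (adjusted p = 0.0289 for Stat5b, edgeR).

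**Figure D4:**
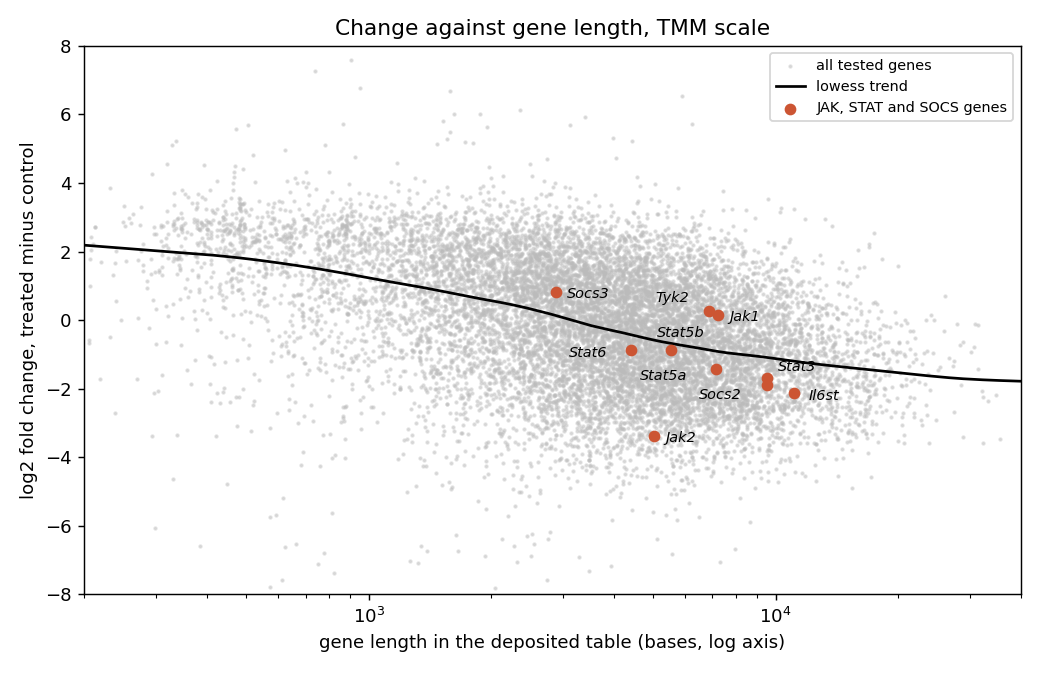
Log2 fold change against deposited gene length on a log axis for 13204 tested genes (86 lie outside the axes), with the lowess trend in black and the 10 members in red. Jak1, Tyk2 and Socs3 lie above the trend and the other 7 members below it.

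The transcript models differ between the SOCS genes and the rest. In GENCODE's annotation of GRCm38, the coding transcript of Socs3 has 2 exons and that of Socs2 has 3, whereas the kinases have 25 each, the STAT genes 19 to 24 and Il6st 17. The pentamer ATTTA, found in AU-rich elements of short-lived mRNAs, occurs at least once in the 3′ untranslated region of 9 of the 10 members, against 65.5% of tested protein-coding genes with a model; Stat6 has none. The longer TATTTAT occurs in Socs3, Socs2, Jak2 and Stat5b, against 27.4% of those genes. Socs3 has 2 copies in 1474 bases, and the other three have 1 each. The 3′ untranslated regions of the members run from 976 to 5641 bases, all above the median of 969 bases over those genes, and per kilobase the members hold 0 to 3.55 ATTTA (Jak1 highest, Socs3 next at 2.71) against a median of 1.22. Such a match is a description of sequence and not a shown site.

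Since STAT proteins bind the palindrome TTCNNNGAA and SOCS genes are known STAT targets, the promoter windows of the members were searched for it. RefSeq windows on GRCm38.p6, 250 bases before to 50 after a start site, were at hand for 9 of the 10 members, in 11 windows; Socs2 was not matched. The palindrome reads the same on both strands, and it occurs in 8.3% of all 32851 windows. Of the 11 member windows 1 holds it, a share near that of all windows. It is that of Socs3, with TTCTTAGAA at chr11:117969512-117969520. No match elsewhere says only that the letters are not in those windows. The part of this match in the change of Socs3 was not tested. The RefSeq start lies 180 bases before the start of the coding GENCODE transcript. The 250 bases before the start are shown for Socs3 (chr11:117969367-117969616, minus strand), the gene that rose, and for Il6st (chr13:112463820-112464069, plus strand) and Jak2 (chr19:29251553-29251802, plus strand), a receptor gene and a kinase gene that fell, with the palindrome in capitals.
Socs3: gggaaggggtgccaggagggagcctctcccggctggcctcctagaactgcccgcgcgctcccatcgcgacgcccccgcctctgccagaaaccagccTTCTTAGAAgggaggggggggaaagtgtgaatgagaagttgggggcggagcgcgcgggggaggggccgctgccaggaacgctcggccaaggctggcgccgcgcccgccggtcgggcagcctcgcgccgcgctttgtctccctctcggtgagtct
Il6st: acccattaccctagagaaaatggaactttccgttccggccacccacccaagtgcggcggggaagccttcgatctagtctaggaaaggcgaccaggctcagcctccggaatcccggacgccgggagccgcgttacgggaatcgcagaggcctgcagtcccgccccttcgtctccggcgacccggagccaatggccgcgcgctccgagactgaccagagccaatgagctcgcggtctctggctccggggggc
Jak2: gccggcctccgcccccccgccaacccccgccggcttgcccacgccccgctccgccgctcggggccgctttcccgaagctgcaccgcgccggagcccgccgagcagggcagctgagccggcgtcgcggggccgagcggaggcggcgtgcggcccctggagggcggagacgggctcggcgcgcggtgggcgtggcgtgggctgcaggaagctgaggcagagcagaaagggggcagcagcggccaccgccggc
The 3 windows carry many CpG pairs, with 31, 33 and 44 over their full 300 bases against a median of 7 over all windows. Over all 11 member windows the number ran from 5 to 50.

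For each member, the other protein-coding gene with at least 5 CPM and the most similar profile was sought by Euclidean distance of centred log2 CPM over the 6 libraries. Among 9153 candidates Stat3 lay nearest to the chromatin reader gene Brd2 (distance 0.060), Stat5a to Ezr (0.054), which encodes the membrane linker ezrin, and Il6st to the lipid flippase gene Atp8b2 (0.087). Socs3 lay nearest to the RNA-binding protein gene Dazap1 (0.106) and Jak1 to Ascc2 (0.104). Jak2 lay nearest to the mitotic kinesin gene Kif11 at a larger distance of 0.312, and Socs2 to Ddhd1 at 0.315. Tyk2, Stat5b and Stat6 lay nearest to Zmpste24, March8 and Ehd4 (0.093, 0.092 and 0.083). With 6 libraries in 2 groups, many genes of the same size of change lie close, so the names describe likeness only.

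Other genes of the pathway were read from lists by role. Of 10 listed interleukin 6 family ligand genes, 6 could be tested, and 5 were higher and 1 lower, against 34.6% and 40.2% of all tested genes, with a median of 1.73. Lif, for leukaemia inhibitory factor, rose from 14.3 ± 0.034 to 80.3 ± 14.9 CPM (SD, n = 3), a log2 change of 2.49 ± 0.18. Ctf1, for cardiotrophin 1, rose by 1.76 ± 0.26. Clcf1, the cardiotrophin-like cytokine gene, changed by −1.06 ± 0.23. Il11 and Il6 itself were also higher, at 1.697 and 1.69, from summed control counts of 30 and 42. Neither passed by library size alone or with the length trend removed. The call of Il6 depended on single libraries, being absent when control replicate 1 or either of treated replicates 1 and 3 was left out, and that of Il11 was absent without control replicate 3. Holding ribosomal protein genes equal, none of these 5 rises passed, Ctf1 was at −0.59, and Lif was at 0.13.

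Of 6 listed interleukin 6 family receptor subunits beside Il6st, 5 were tested, 2 were lower and none of the 5 higher. Of all tested genes 40.2% were lower and 34.6% higher. Osmr, the oncostatin M receptor, fell from 89.3 ± 10.8 to 19.1 ± 5.84 CPM, a change of −2.22 ± 0.23, and Il6ra, the ligand-binding subunit for interleukin 6, changed by −1.86 ± 0.25. Lifr, the receptor for Lif, had 13.7 ± 2.86 and 14.2 ± 2.98 CPM (adjusted p = 0.826, edgeR). By library size alone all 5 were called lower, Lifr by −0.97, where 59.6% of all tested genes were lower. With the length trend removed Lifr was called higher by 0.94.

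Of 27 other receptor genes that use JAKs, 13 were tested, and 8 were lower and 2 higher. That makes 10 called of 13, near the 74.8% called over all tested genes. By direction, 40.2% of all tested genes were lower and 34.6% higher. Il4ra, for interleukin 4 receptor α, fell from 92.2 ± 13.6 to 9.27 ± 0.92 CPM, and Ifngr1, the interferon γ binding chain, from 22.7 ± 0.26 to 2.43 ± 0.13 CPM. Il15ra, which presents interleukin 15, changed by −2.06 ± 0.26. The rises were Crlf2, the receptor for thymic stromal lymphopoietin, at 2.05 ± 0.19, and Ifnar2, a chain of the interferon α and β receptor, at 1.09 ± 0.17. Ifnar1, the other chain of the same receptor, fell with a log2 change of −1.39 ± 0.19. On the ribosomal scale Crlf2 turned negative without passing (−0.36, adjusted p = 0.102, edgeR). Ifnar2 was called lower on that scale (−1.29, adjusted p = 0.00205, edgeR) and did not pass by library size alone (0.058).

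Among the 5 other JAK and STAT genes, 4 were tested. Jak3, a kinase best known from lymphocytes, rose from 30.7 ± 3.42 to 76.4 ± 13.6 CPM. Its change of 1.31 ± 0.18 did not pass by library size alone (0.30). Jak3 was called lower when ribosomal protein genes were held equal (−1.03, adjusted p = 0.0161, edgeR). Stat2, a transducer of interferon responses, changed by −0.55 ± 0.21 (adjusted p = 0.0321, edgeR), a call lost without control replicate 1 or control replicate 3, with the replicate block (adjusted p = 0.0549, edgeR) and with the length trend removed (−0.10).

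Of 6 other SOCS family genes all were tested, 4 were lower and 1 higher, where 40.2% of all tested genes were lower and 34.6% higher. Socs6, Socs5 and Socs4 changed by −2.13 ± 0.29, −1.68 ± 0.27 and −1.29 ± 0.32, and Socs7 by −0.99 ± 0.21, of which Socs4 and Socs7 did not pass with the length trend removed. Cish, a STAT5-induced family member, rose by 2.06 ± 0.39 from 61 to 124 counts. With ribosomal protein genes held equal Cish was negative without passing (−0.31, adjusted p = 0.502, edgeR). Of 10 tested brakes of other families, 7 were lower and 1 higher, against the same shares. Pias1, a STAT-binding SUMO ligase, fell from 14.3 ± 2.46 to 1.04 ± 0.47 CPM, Pias4 changed by −2.65 ± 0.21, and Ptpn1, a phosphatase of JAKs, by −2.31 ± 0.18. The phosphatase gene Dusp22 rose by 0.85 ± 0.22, with a sign that turned by library size alone without passing (−0.19). Dusp22 was called lower when ribosomal protein genes were held equal (−1.56, adjusted p = 0.000646, edgeR).

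Genes known as STAT3 or STAT5 targets went both ways, with 9 of 20 tested higher and 9 lower and a median of −0.081, near the 34.6% higher and 40.2% lower of all tested genes. On the ribosomal scale 2 were higher and 14 lower, where 244 of all 13290 tested genes were higher and 10954 lower. Lcn2, the secreted lipocalin of inflammation, rose from 15.8 ± 1.44 to 132 ± 17.3 CPM and Junb, an AP-1 factor, from 48.1 ± 7.55 to 312 ± 49.97 CPM, of which Junb did not pass on the ribosomal scale (0.35, adjusted p = 0.274, edgeR). Fgl1, a secreted fibrinogen-like protein gene, went from 4 counts in all controls to 79 in all treated libraries. Il4ra, the transcriptional repressor gene Bcl6 (−2.88 ± 0.30) and the survival gene Bcl2l1 (−2.02 ± 0.20) were the largest falls. Each of these genes answers to other signals too, and Cish and Il4ra stand in 2 of the lists. On the TMM scale, among the called pathway genes named here other than Stat2, the largest adjusted p was 0.0157 (edgeR).

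**Figure D5:**
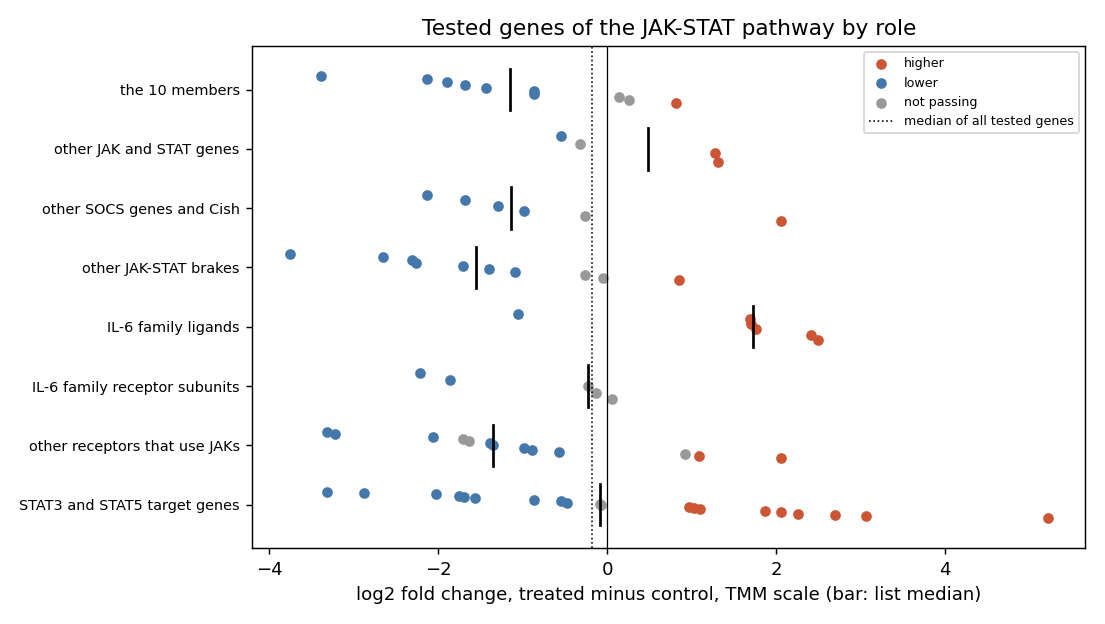
Log2 fold change on the TMM scale of every tested gene of the 10 members and of 7 pathway lists, with black bars for list medians, a dotted line for the median of all tested genes and colours for genes called higher, lower or not passing. Ligands of the interleukin 6 family lie mostly to the right (median 1.73) and the members, SOCS genes, other brakes and other receptors mostly to the left.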

How the data were processed

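The libraries measure RNA of mouse L929 fibroblasts. The authors deposited whole-number counts per gene, and FPKM that equal, per the file headers and values, the count divided by gene length (another deposited value, in bases) times 1 constant per library; set against scaling by library total, that constant was 0.635 to 0.719 in controls and 1.22 to 1.64 after treatment. HISAT2 2.1.0, RSEM 1.3.1, DESeq2 1.24.0, GRCm38 and mm10 are named in the submitters' processing notes, with no role or order. Columns named WT were matched to control titles by number.

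Genes passing edgeR's filterByExpr (13290 of 24708 with a count) were TMM-scaled and tested with edgeR 4.0.16 (robust quasi-likelihood fit) in R 4.3.3, with Benjamini-Hochberg adjustment over all of them and a threshold of 0.05. SEs are the log2 change over the root of F, and 95% intervals use the test's degrees of freedom. Centred log2 CPM use a prior count of 2, and 0.5 was added to counts in log2 ratios (not in the ratios printed). Alternatives included limma 3.58.1 and DESeq2 1.42.0, a lowess length trend (span 0.3) and leaving out each library. The fit was also run on simulated data of 13008 genes, most of them unchanged. It called 44 of 98 changes of 1 log2 unit and 83 of 97 changes of 2, with 13 false among 140 calls. In the real data most tested genes were called, so that simulation does not test the scaling used here.

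The members and gene lists were chosen with earlier results of these data known. Named genes are all members, each member's nearest profile, and per list the 3 largest rises and falls among called genes whose mean reached 1 CPM. Il11, Il6, Socs7, Lifr, Ifnar1 and the markers were named after their values were seen. Some genes that the rule names are not reported here. Symbols were read by gene ID for March8. Coordinates are the deposited ones, which for all 10 members equal those of GENCODE M21. Figures were drawn with matplotlib 3.10.9.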

Additional observations from a re-analysis of the deposited data

How the results depend on the processing

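The 7 falls among the members kept their direction under every alternative run and their calls under all but 1, in which Socs2 changed by −1.10 (adjusted p = 0.0855) once the length trend was removed. Socs2 could not be tested on FPKM, where its mean lay below 1, and Jak2 was at −1.67 on log2(FPKM + 1), a scale that understates the change of low genes. By library size alone 2277 genes were called higher and 7924 lower, and 0 members were higher. Jak1, Tyk2 and Socs3 were at −0.89, −0.78 and −0.21. On that scale 0 other JAK and STAT genes were higher and 2 lower, and 0 brakes and 3 ligands were higher. Also 5 receptor subunits were lower and 1 other receptor was higher. With ribosomal protein genes held equal 244 genes were higher and 10954 lower, and 0 members were higher and all 10 lower. Jak1, Tyk2 and Socs3 were then at −2.24, −2.13 and −1.56. In that setting 0 other JAK and STAT genes were higher and 4 lower, and 5 receptor subunits were lower. Likewise 0 SOCS genes, 0 brakes, 0 ligands and 0 other receptors were higher, and 2 target genes were higher and 14 lower. Those scalings move the median of all tested genes by −1.04 and −2.39, and called genes split into 46.3% higher with TMM, 22.3% by library size and 2.18% under the ribosomal setting. With no low-count filter Jak1 was at −0.021 (adjusted p = 0.935). DESeq2 called 2 members higher, with Tyk2 at 0.37. Removing the length trend gave 2 members higher, Jak1 at 0.76 and Tyk2 at 0.83, with Socs3 at 0.39; 0 other JAK and STAT genes were lower, 2 brakes, 3 ligands and 1 receptor subunit higher. The cause of these differences between settings was not tested. Same-numbered libraries deviated together by correlations of 0.22, −0.14 and 0.029, and not every library correlated best with its own number, so the numbers were not taken as pairs. A replicate block gave 4450 genes higher and 5411 lower, 1 member higher and 7 lower, with 0 other JAK and STAT genes lower; with a replicate block and the length trend removed 2 members were higher, Jak1 at 0.75, Tyk2 at 0.83 and Socs3 at 0.40, and Socs2 kept its call at −1.29. Leaving out 1 library at a time gave 1 member higher and 7 lower each time, and 0 to 1 other JAK and STAT genes lower, an alternative chosen for the lists after seeing the data. Depth limits Jak2 and Socs2, with 59 and 33 counts over the treated libraries.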
